A study of Drosophila melanogaster with 4 samples.

Results

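The Odorant-binding protein (Obp) family was followed in the head transcriptome of Drosophila melanogaster males. Members were the rows of the gene table whose name starts with Obp followed by a digit, which gave 51 of 16680 genes. The relative lush is listed under its own name and so was not a member. All 4 libraries came from adult F1 males that carry Kr[If-1], a dominant gain-of-function allele of the transcription factor gene Krüppel whose nature has not been characterized and which misexpresses Kr in the ventral eye disc. The parents were kept on food with K2Cr2O7, a Cr(VI) compound, at 10 µM. The groups were 2 libraries of flies with phenotype, that is with phenotypic variations of the eye, and 2 libraries of flies without phenotype. Each library was made from the RNA of 10 pooled heads, and the labels call the repeats biological without naming separate crosses, so the tests measure only the spread between these samples. No library of unexposed flies was analysed here, and exposure is therefore the same in both groups.

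Odorant-binding proteins are small secreted proteins with a hydrophobic pocket. In insects they are made mostly by the support cells of sensory hairs and fill the lymph around the dendrites of olfactory and taste neurons, where they can bind, carry or buffer small molecules. Some members are made away from sense organs, in glia, fat body or the male reproductive tract. The members were grouped by where they are known from: antenna, antenna and taste organs together, taste organs, body, and the rest, for which no site was assigned. Body stands for central nervous system glia, male head fat body and seminal fluid, so it includes tissues of the head.

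Values are FPKM, that is fragments scaled by transcript length and by the size of the library, which allow levels to be compared between genes per length. The number of reads behind them is unknown, so no counting interval is given. A gene was tested where its 4 libraries averaged 1 FPKM or more. The test was limma's on log2(FPKM + 1), with a threshold of an adjusted p under 0.1. The added 1 makes fold changes of weakly expressed genes look smaller than they are. For a single value such as a sum, an exact permutation test of 2 libraries against 2 was used, whose smallest two-sided p is 0.333. The head label was borne out by its markers, with ninaE, the major rhodopsin gene, at 948 and 665 FPKM with phenotype and at 773 and 544 FPKM without phenotype. Digestive enzyme transcripts varied widely between libraries, also between repeats of a group. Their list of 11 genes summed to 83.3 and 218 FPKM with phenotype and to 425 and 57.7 FPKM in repeats 1 and 2 without phenotype.

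Levels in the family ran from among the highest of the head to 0. Of the 51 genes, 19 had a mean of at least 50 FPKM, 6 lay between 10 and 50 FPKM, 8 between 1 and 10 FPKM, and 18 were under 1 FPKM. Obp19d, known from both olfactory and taste organs, was the fifth most abundant transcript of all 16680 genes, at 2983 and 3150.3 FPKM with phenotype and 3200 and 2647 FPKM without phenotype. Obp99c, whose site was not assigned, was at 2029.7 and 2219 FPKM with phenotype and 2148 and 1499 FPKM without phenotype, and ranked 15 among all genes. Obp56d, another member of olfactory and taste organs, ranked 88 among all genes. These 3 genes held ranks 1, 2 and 3 of the family in all 4 libraries. The 5 most abundant members (Obp19d, Obp99c, Obp56d, Obp44a and Obp83a) made up 72.9% and 73.5% of the summed FPKM of the family with phenotype and 68.5% and 67.7% without phenotype.

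**Figure D1:**
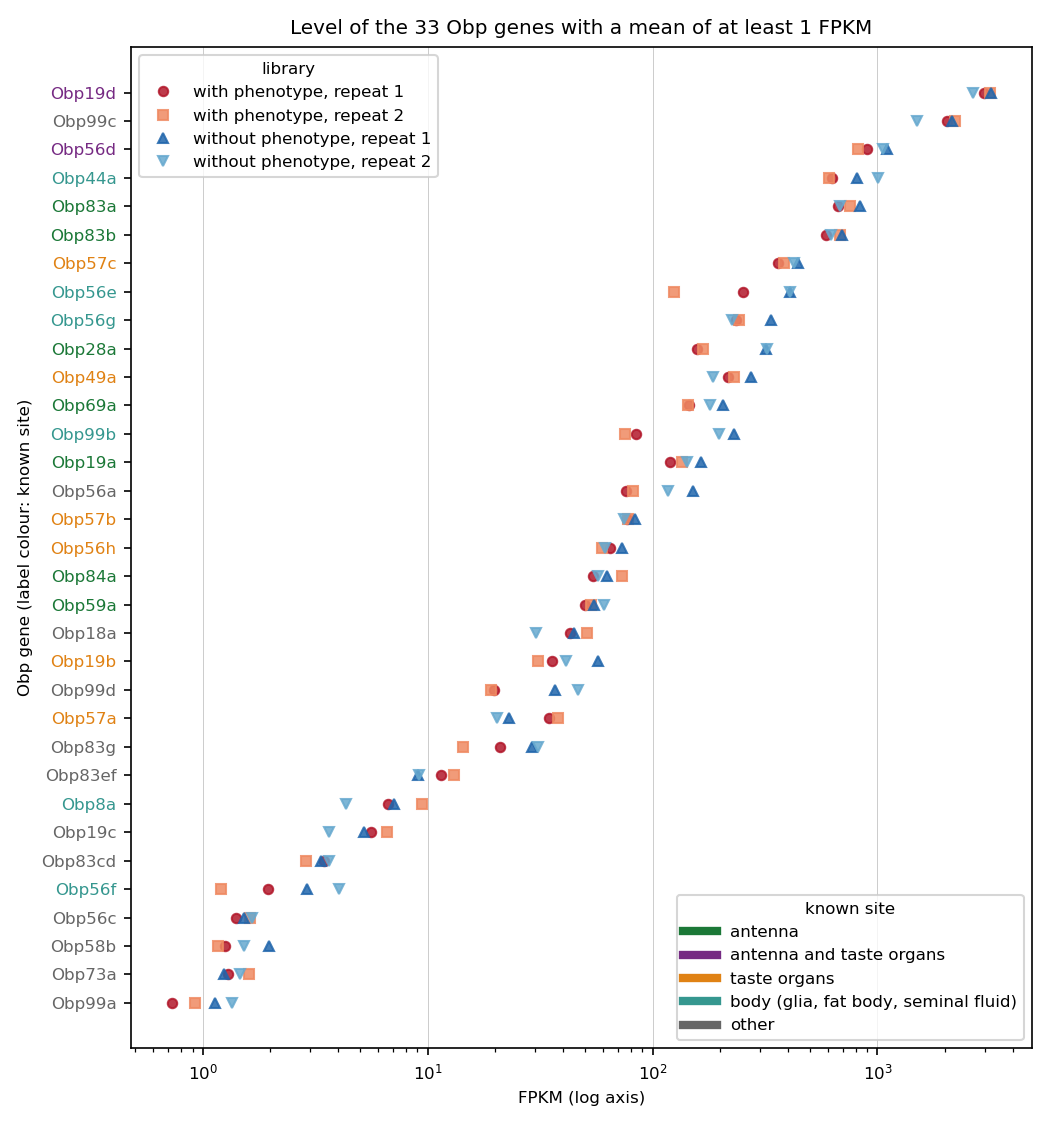
FPKM (log axis) of the 33 Obp genes that averaged 1 FPKM or more, one row a gene and one point a library, with the colour of the gene name giving the site it is known from. The mean level runs from 2995 FPKM for Obp19d to 1.03 FPKM for Obp99a.

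The summed FPKM of the family was 9880.9 and 10283 with phenotype and 11820 and 10167 without phenotype, which was 1.70% and 1.73% of all FPKM with phenotype and 1.94% and 1.74% without phenotype. The groups overlapped, since repeat 2 with phenotype lay above repeat 2 without phenotype. The means had a ratio of 0.917, with over without phenotype, and the difference was smaller than the gap between the repeats without phenotype, though not than that between the repeats with phenotype (exact permutation test, two-sided p = 0.667). In bulk heads, fewer cells of a type and less RNA per cell cannot be told apart, for the family as for each member below.

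The sums by site differed in how far the groups lay apart. The 9 genes of the body group summed to 1206 and 1065 FPKM with phenotype and 1790 and 1843 FPKM without phenotype, a ratio of 0.625, and the groups did not overlap. Of this sum, Obp44a, known from glia, held 625 and 611 FPKM with phenotype and 807 and 1004 FPKM without phenotype. The 7 antennal genes summed to 1784 and 2009.5 FPKM with phenotype and 2337 and 2068 FPKM without phenotype, a ratio of 0.861, again without overlap. The nearest libraries, repeat 2 of each group, were closer in this sum than in Obp28a alone (168 and 324 FPKM). The separation of the antennal sum thus rested on Obp28a. The pair known from both organs summed to 3883 and 3972 FPKM with phenotype and 4301 and 3700.3 FPKM without phenotype. Neither that pair nor the 8 taste organ genes, at 792 and 822 FPKM with phenotype and 958 and 809 FPKM without phenotype, separated the groups. The 25 genes with no assigned site summed to 2216 and 2415 FPKM with phenotype and 2435 and 1748 FPKM without phenotype. The body group made up 12.2% and 10.4% of the family's FPKM with phenotype and 15.1% and 18.1% without phenotype.

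**Figure D2:**
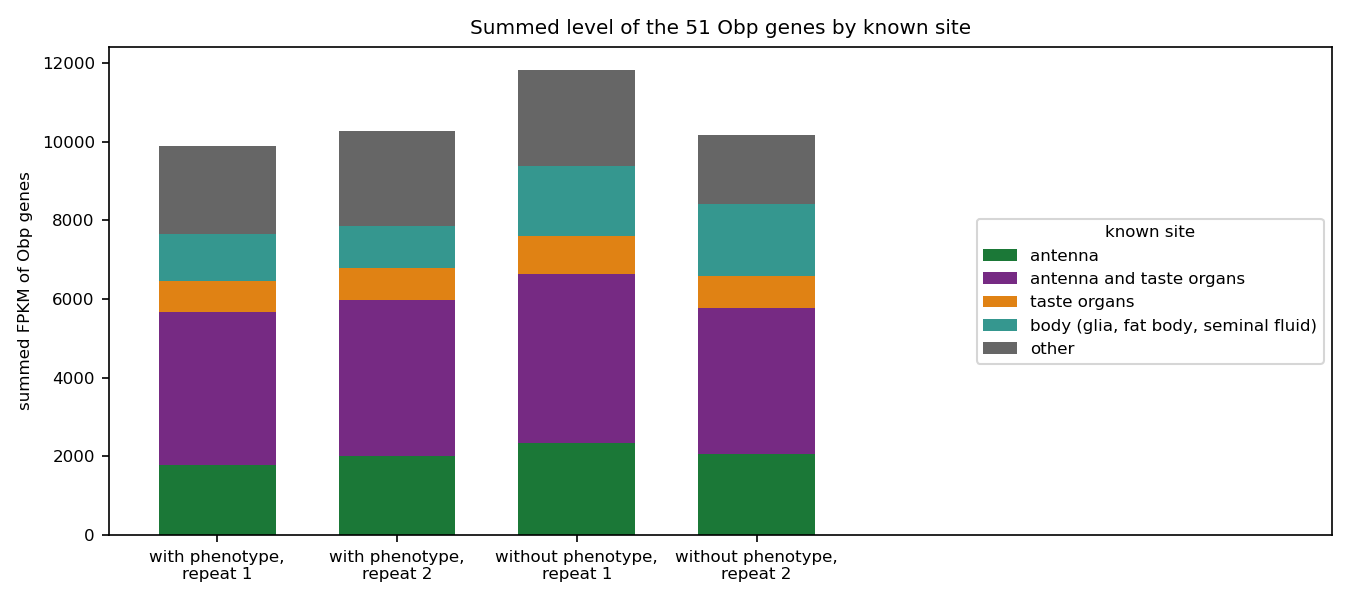
Summed FPKM of the 51 Obp genes in each of the 4 libraries, stacked by the site the genes are known from. The totals run from 9880.9 to 11820 FPKM, with the highest in repeat 1 without phenotype, and the body segment is smaller in both libraries with phenotype (1206 and 1065 FPKM) than in both without (1790 and 1843 FPKM).

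Gene by gene, most tested members were at lower FPKM with phenotype, but none passed the test across all genes. Of the 33 members tested, 0 had an adjusted p under 0.1 from limma, and 9 of all 10194 genes tested did (0.0883%). At an unadjusted p under 0.05, 11 members (33.3%) were lower and 2 (6.06%) were higher with phenotype, where the share of all genes tested was 6.67% lower and 16.0% higher. The libraries of the groups did not overlap for 16 members that were lower (48.5%, against 18.3% of all genes) and for 3 that were higher (9.09%, against 41.3% of all genes). A negative log2 fold change was found for 24 members (72.7%), against 37.3% of all genes. The median log2 fold change was -0.15 over the 33 members and 0.07 over all genes tested. As all genes leaned towards higher FPKM with phenotype, the libraries were also scaled by median ratios. All genes then divided into 10.4% lower and 10.0% higher, so that 51.0% of those under 0.05 were lower, where 29.4% were lower on FPKM as deposited, and the members divided into 14 lower and 2 higher.

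These counts depended on single libraries. Without repeat 2 with phenotype, 6 members were lower and 2 higher at an unadjusted p under 0.05, against 3.04% and 4.97% of all genes. Without repeat 1 with phenotype, 7 were lower and 2 higher, against 4.79% and 10.2% of all genes. Without repeat 1 without phenotype, 8 were lower and 6 higher, against 10.4% and 11.5% of all genes, and 19 of 33 log2 fold changes were negative. The number of members past the adjusted threshold was then 5 (Obp28a, Obp44a, Obp57a, Obp99b and Obp99d), among 509 of all genes tested. It was 4 without repeat 2 without phenotype, among 142 genes, and 0 without either library with phenotype, where 0 of all genes passed. It was 4 (Obp28a, Obp57a, Obp99b and Obp99d), among 109 genes, when only genes that averaged 5 FPKM or more were tested, and 2 (Obp28a and Obp99b), among 23 genes, on log2(FPKM + 0.1).

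**Figure D3:**
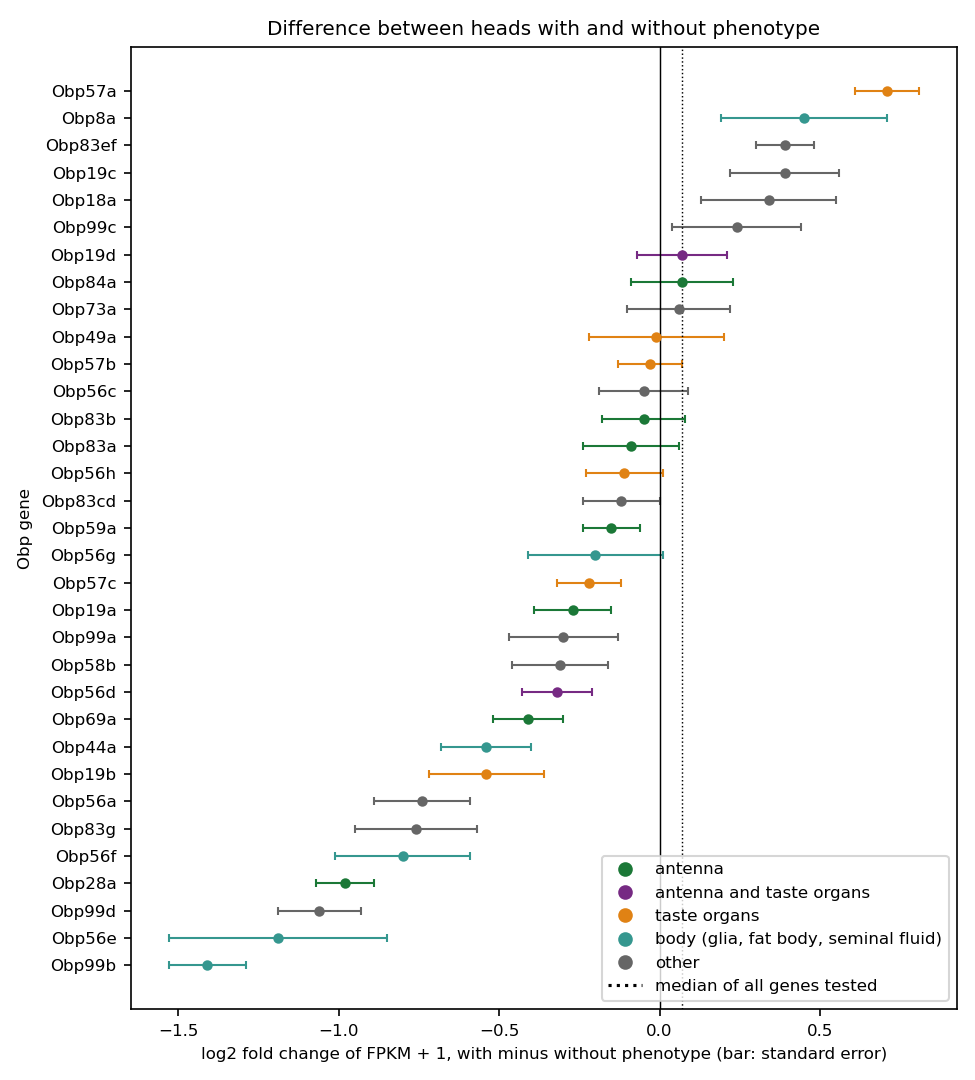
Log2 fold change (with over without phenotype, on log2(FPKM + 1)) of the 33 Obp genes tested, sorted by size, with bars for the standard error from limma and a dotted line at 0.07, the median of all genes tested. The values run from -1.41 for Obp99b to 0.71 for Obp57a, and 24 of 33 lie below 0.

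Among the antennal members, Obp28a and Obp69a stood lower with phenotype while the most abundant pair did not separate the groups. Obp28a, a gene of antennal olfactory sensilla (2L:7496791-7497365, dm6), was at 158 and 168 FPKM with phenotype and 319 and 324 FPKM without phenotype. The repeats of each group lay close together and the groups were far apart, with a mean of 163 ± 6.91 FPKM with phenotype and 322 ± 2.99 FPKM without phenotype (SD, n = 2 each). The log2 fold change was -0.98 (SE 0.09), and the adjusted p from limma was 0.10, just above the threshold. Obp69a (3L:12396171-12396957, dm6), also antennal, was at 145 and 144 FPKM with phenotype and 206 and 181 FPKM without phenotype. These groups did not overlap either, and the log2 fold change was -0.41 (SE 0.11, adjusted p = 0.16).

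Obp83a and Obp83b, first described as the antennal proteins OS-F and OS-E, are neighbouring genes that share sensilla. Obp83a was at 668 and 755 FPKM with phenotype and 836 and 682 FPKM without phenotype (log2 fold change -0.09, SE 0.15, adjusted p = 0.73). Obp83b was at 589 and 681 FPKM with phenotype and 694 and 621 FPKM without phenotype (log2 fold change -0.05, SE 0.13, adjusted p = 0.82). Both overlapped between groups, and their ratio within a library was nearly constant, at 1.13 and 1.11 with phenotype and 1.21 and 1.10 without phenotype.

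The remaining antennal genes differed less than Obp28a. Obp19a was at 119 and 135 FPKM with phenotype and 164 and 143 FPKM without phenotype (log2 fold change -0.27, SE 0.12, adjusted p = 0.27). Obp59a, needed for humidity sensing, was at 50.2 and 53.3 FPKM with phenotype and 54.9 and 60.7 FPKM without phenotype (log2 fold change -0.15, SE 0.09, adjusted p = 0.37). Neither gene overlapped between groups, although the gaps were small. Obp84a, known from coeloconic sensilla, was at 54.3 and 72.9 FPKM with phenotype and 62.8 and 57.3 FPKM without phenotype (log2 fold change 0.07, SE 0.16, and -0.01 with median ratio scaling, adjusted p = 0.81). It overlapped between groups and shares 663 bp of its exons with Dtwd2 on the other strand. In this unstranded library reads of the shared stretch cannot be told apart by strand. Dtwd2 was at 2.23 to 3.52 FPKM in all libraries. In all, 6 of 7 antennal members had a negative log2 fold change (37.3% of all genes), with a median of -0.15.

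A list of 14 other antennal genes was set beside them, of which 13 were tested. It summed to 720.0 and 797 FPKM with phenotype and 883 and 858 FPKM without phenotype, without overlap. None passed the threshold. At an unadjusted p under 0.05, 4 of 13 were lower (6.67% of all genes) and 1 was higher (16.0% of all genes). The log2 fold change was negative for 10 of 13 (37.3% of all genes), and the median was -0.15. The gene lush, whose protein binds the pheromone cis-vaccenyl acetate in trichoid sensilla, was at 92.3 and 100.2 FPKM with phenotype and 132 and 139 FPKM without phenotype (log2 fold change -0.49, SE 0.10, adjusted p = 0.14). Orco, the coreceptor of odorant receptor neurons, was at 58.0 and 56.9 FPKM with phenotype and 68.6 and 67.8 FPKM without phenotype (log2 fold change -0.24, SE 0.08, adjusted p = 0.19). Most abundant on the list was a10, at 420 and 491 FPKM with phenotype and 519 and 490 FPKM without phenotype. Its groups overlapped (log2 fold change -0.15, SE 0.12, adjusted p from limma = 0.48). Of the 3 markers with a positive log2 fold change, Or47b had the highest, at 0.37 (SE 0.13, adjusted p from limma = 0.20). It was at 5.39 and 6.81 FPKM with phenotype and 4.6 and 4.3 FPKM without phenotype. The lowest log2 fold change on this list was -0.70, for the odorant receptor gene Or42b, against -0.98 for Obp28a. Or42b was at only 2.78 and 2.26 FPKM with phenotype and 4.19 and 5.25 FPKM without phenotype. At such levels the added 1 makes a fold change look smaller, so these log2 fold changes cannot be compared directly. The part of these markers in the values of the antennal Obp genes was not tested.

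**Figure D4:**
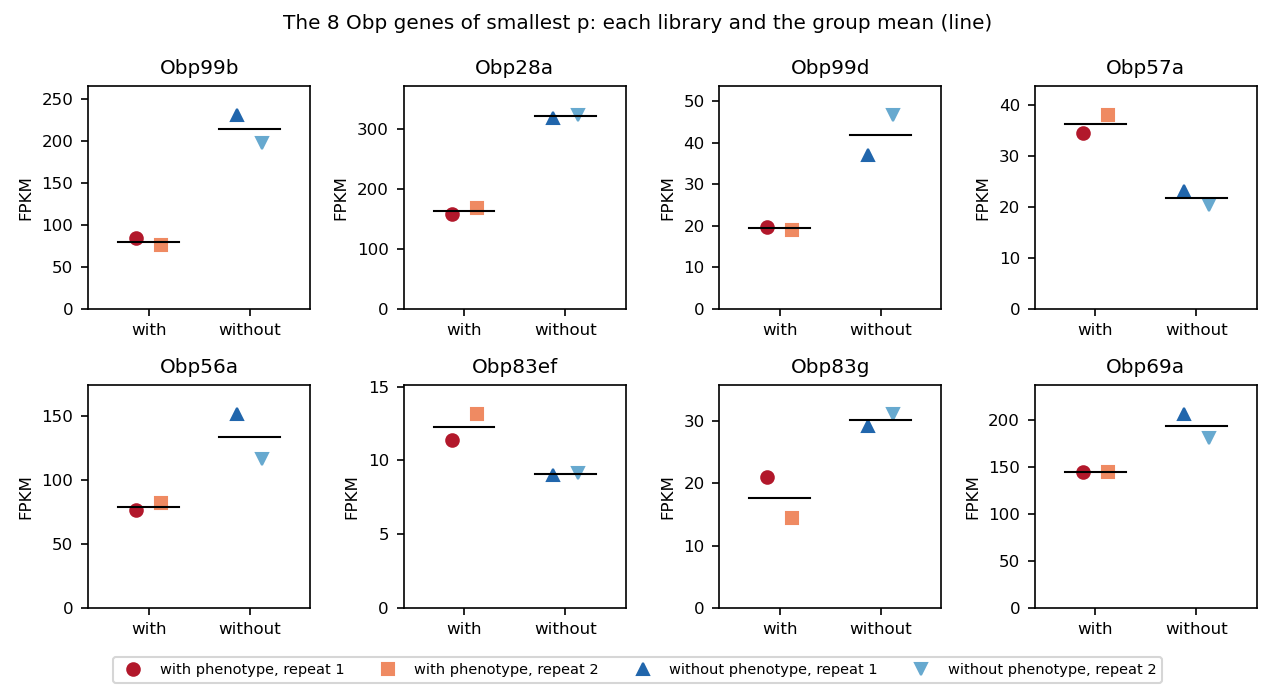
FPKM of the 8 Obp genes with the smallest p, one panel a gene, with a point for each library and a line for the group mean. In every panel the groups do not overlap, with Obp57a and Obp83ef higher with phenotype and Obp99b, Obp28a, Obp99d, Obp56a, Obp83g and Obp69a lower. The genes were picked by p from these same libraries, so the gaps follow largely from that choice. Of all genes tested, 18.3% were lower and 41.3% higher without overlap.

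The pair known from both olfactory and taste organs differed from each other. Obp19d, the most abundant member, had a log2 fold change of 0.07 (SE 0.14, adjusted p = 0.76), which was -0.01 with median ratio scaling. Obp56d was at 901 and 821 FPKM with phenotype and 1101 and 1054 FPKM without phenotype (log2 fold change -0.32, SE 0.11, adjusted p = 0.20). Its groups did not overlap, unlike those of Obp19d.

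The taste organ members held the gene with the highest log2 fold change of the family. Obp57a was at 34.5 and 38.0 FPKM with phenotype and 23.0 and 20.4 FPKM without phenotype, a ratio of means of 1.67 (log2 fold change 0.71, SE 0.10, adjusted p = 0.12). Its neighbours did not share this direction. Obp57b was at 77.2 and 77.5 FPKM with phenotype and 83.8 and 74.8 FPKM without phenotype (log2 fold change -0.03, SE 0.10, adjusted p = 0.85). Obp57c was at 361 and 384 FPKM with phenotype and 445 and 424 FPKM without phenotype (log2 fold change -0.22, SE 0.10, adjusted p = 0.26). Thus of 3 genes within 2.17 kb, 1 was higher without overlap, 1 was lower without overlap and 1 overlapped. Higher without overlap were 41.3% of all genes tested, and 18.3% were lower without overlap.

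Obp49a, which in taste hairs lets bitter compounds suppress the sweet response, was at 217 and 231 FPKM with phenotype and 274 and 186 FPKM without phenotype (log2 fold change -0.01, SE 0.21, adjusted p = 0.98). Obp56h, expressed in the proboscis and linked to male courtship, was at 64.7 and 59.3 FPKM with phenotype and 73.3 and 61.2 FPKM without phenotype (log2 fold change -0.11, SE 0.12, adjusted p = 0.60). Both overlapped between groups, with the highest value of each in repeat 1 without phenotype. Obp19b was at 35.6 and 30.9 FPKM with phenotype and 57.4 and 41.2 FPKM without phenotype, without overlap. Obp57d and Obp57e, known from taste hairs of the legs, were under 1 FPKM in all 4 libraries, at 0.46 to 0.67 FPKM. A list of 9 other taste organ genes, such as sugar and bitter receptors, summed to 9.94 and 10.4 FPKM with phenotype and 8.89 and 8.11 FPKM without phenotype. Of these, 5 were under 1 FPKM, 4 were tested and 0 passed, with 1 (ppk25) higher at an unadjusted p under 0.05 (16.0% of all genes). The 6 taste organ Obp genes tested had a median log2 fold change of -0.07, and 5 of 6 were negative (37.3% of all genes).

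Members known from the body included the genes with the lowest log2 fold changes of the family, Obp99b and Obp56e. Of the 6 tested, 5 had a negative log2 fold change, with a median of -0.67, and 4 were lower at an unadjusted p under 0.05. Over all genes tested, 37.3% were negative and 6.67% were lower at that p. Obp99b (3R:29716254-29716896, dm6), known from the fat body of the male head, was at 84.1 and 75.7 FPKM with phenotype and 231 and 198 FPKM without phenotype. The mean was 79.9 ± 5.93 FPKM with phenotype and 214 ± 23.7 FPKM without phenotype (SD, n = 2 each), which made it 2.68 times as high without phenotype. The log2 fold change of -1.41 (SE 0.12) was the lowest of the family, and the adjusted p from limma was 0.10, above the threshold. It ranked 14 and 16 in the family with phenotype and 12 and 11 without phenotype.

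Other fat body genes went both ways. Of 9 fat body markers, 5 had a positive and 4 a negative log2 fold change (37.3% of all genes were negative). They summed to 4229 and 3819 FPKM with phenotype and 3671 and 2104 FPKM without phenotype. At an unadjusted p under 0.05, 5 were higher (16.0% of all genes) and 2 were lower (6.67% of all genes). The 2 that passed the adjusted threshold went in opposite directions. The gene to (takeout), a secreted carrier gene of the male head fat body, was higher, at 976 and 984 FPKM with phenotype and 51.2 and 75.8 FPKM without phenotype (log2 fold change 3.96, adjusted p = 0.037). Fbp2 was lower, at 9.69 and 7.21 FPKM with phenotype and 46.3 and 57.9 FPKM without phenotype (log2 fold change -2.49, adjusted p = 0.077). The part of fat body content in the values of Obp99b was not tested.

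Obp44a, known from glia of the central nervous system, was at 625 and 611 FPKM with phenotype and 807 and 1004 FPKM without phenotype. The groups did not overlap, with a mean of 618 ± 9.96 FPKM with phenotype and 906 ± 139.5 FPKM without phenotype (SD, n = 2 each, log2 fold change -0.54, SE 0.14, adjusted p = 0.16). Of 8 glial markers, 6 had a negative log2 fold change (37.3% of all genes), 0 passed, and the median was -0.13. At an unadjusted p under 0.05, 3 were lower (6.67% of all genes) and 1 was higher (16.0% of all genes). They summed to 1841 and 1490.4 FPKM with phenotype and 1908 and 1819 FPKM without phenotype. The log2 fold changes on this list ran from -0.61 for Indy to 0.55 for wrapper, with 0.13 for the glial fate gene repo. Glial content as a part of the difference in Obp44a was not tested. Of the exons of Obp44a, 19.1% overlap Pabp2 on the other strand, which was at 20.1 to 24.9 FPKM in all libraries.

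The remaining body members are known from seminal fluid, which is a product of the male reproductive tract and not of the head. Obp56e was at 252 and 125 FPKM with phenotype and 407 and 407 FPKM without phenotype. The groups did not overlap, but the repeats with phenotype differed by 1.01 on the log2 scale, the widest gap between repeats in the family in either group. The log2 fold change was -1.19 (SE 0.34, adjusted p = 0.17), -1.70 without repeat 1 with phenotype and -0.69 without repeat 2 with phenotype. An antisense transcript, asRNA:CR44509, covers 84.4% of its exons and was at 0.07 to 1.36 FPKM.

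Obp56g, also known from the labellum, was at 236 and 243 FPKM with phenotype and 335 and 225 FPKM without phenotype (log2 fold change -0.20, SE 0.21, adjusted p = 0.58). It overlapped between groups. Obp56f was at 1.94 and 1.20 FPKM with phenotype and 2.90 and 4.05 FPKM without phenotype, without overlap. Obp8a was at 6.69 and 9.45 FPKM with phenotype and 7.07 and 4.33 FPKM without phenotype and overlapped. Obp22a, Obp51a and Obp56i were under 1 FPKM. Of 8 accessory gland markers, such as the sex peptide gene SP, 8 had a mean under 1 FPKM, and their sum was 0.61 and 0.96 FPKM with phenotype and 1.43 and 2.78 FPKM without phenotype. Obp56e and Obp56g were thus abundant in heads in which accessory gland genes were near 0.

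Of the members with no assigned site, 12 were tested. Their median log2 fold change was -0.08, with 7 negative (37.3% of all genes tested were negative) and 5 positive. Obp99c had a log2 fold change of 0.24 (SE 0.20, adjusted p = 0.50) and overlapped, with its lowest value in repeat 2 without phenotype. Obp99d (3R:29714505-29715004, dm6) was at 19.7 and 19.1 FPKM with phenotype and 37.0 and 46.7 FPKM without phenotype. Its mean without phenotype was 2.16 times that with phenotype (log2 fold change -1.06, SE 0.13, adjusted p = 0.11). Obp56a was at 76.4 and 81.9 FPKM with phenotype and 152 and 117 FPKM without phenotype (log2 fold change -0.74, SE 0.15, adjusted p = 0.15). Both were lower in the 2 libraries with phenotype than in either library without phenotype.

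The neighbours Obp83g and Obp83ef went in opposite directions. Obp83g was at 21.0 and 14.4 FPKM with phenotype and 29.2 and 31.1 FPKM without phenotype (log2 fold change -0.76, SE 0.19, adjusted p = 0.15). Obp83ef was at 11.4 and 13.1 FPKM with phenotype and 9.04 and 9.18 FPKM without phenotype (log2 fold change 0.39, SE 0.09, adjusted p = 0.15). Obp83cd, the other gene of the 4.17 kb group, was at 3.45 and 2.87 FPKM with phenotype and 3.37 and 3.63 FPKM without phenotype and overlapped. Obp83cd and Obp83ef share 92 bp of exon on opposite strands.

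The other tested members with no assigned site had means under 50 FPKM. Obp18a was at 42.9 and 50.9 FPKM with phenotype and 44.6 and 30.2 FPKM without phenotype. Obp19c was at 5.59 and 6.57 FPKM with phenotype and 5.21 and 3.65 FPKM without phenotype. Only Obp19c of this pair separated the groups, and it was higher. Obp56c was at 1.40 and 1.62 FPKM with phenotype and 1.53 and 1.65 FPKM without phenotype. Obp73a was at 1.29 and 1.61 FPKM with phenotype and 1.24 and 1.47 FPKM without phenotype. Both overlapped between groups. Obp73a shares 63 bp of exon with Ogdh on the same strand, which was at 227 to 259 FPKM. The part of Ogdh reads in the value of Obp73a was not tested. Obp58b was at 1.25 and 1.17 FPKM with phenotype and 1.97 and 1.53 FPKM without phenotype. Obp99a was at 0.73 and 0.92 FPKM with phenotype and 1.13 and 1.35 FPKM without phenotype. Obp58b and Obp99a were lower without overlap (18.3% of all genes tested were), at levels near the minimum for testing.

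The 18 members with a mean under 1 FPKM were not tested, and no single value among them was above 0.67 FPKM. They were Obp22a, Obp46a, Obp47a, Obp47b, Obp50a, Obp50b, Obp50c, Obp50d, Obp50e, Obp51a, Obp56b, Obp56i, Obp57d, Obp57e, Obp58c, Obp58d, Obp85a and Obp93a. Their sum was 2.15 and 2.48 FPKM with phenotype and 2.20 and 2.46 FPKM without phenotype. Obp50b and Obp50c were listed at 0 in all 4 libraries.

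Neighbouring members often differed in level. The 51 members lie on 5 chromosome arms, with 29 on 2R, 12 on 3R, 6 on X, 2 on 2L and 2 on 3L, in 28 groups when neighbours within 20000 bp are joined. The 4 genes at X:20415744-20420979 (dm6) span 5.24 kb and had means from 5.26 FPKM for Obp19c to 2995 FPKM for Obp19d. In the group of Obp56a to Obp56f on 2R, 16.3 kb long, means ran from 0.175 FPKM for Obp56b to 969.1 FPKM for Obp56d, and 4 of the 5 genes tested were lower with phenotype without overlap (18.3% of all genes tested were). On 3R, Obp99d and Obp99b lie within 2.39 kb of each other and both were lower, whereas Obp99a and Obp99c, close by, had means of 1.03 and 1974 FPKM. The 5 genes Obp50a to Obp50e had means of 0.13 FPKM or less.

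**Figure D5:**
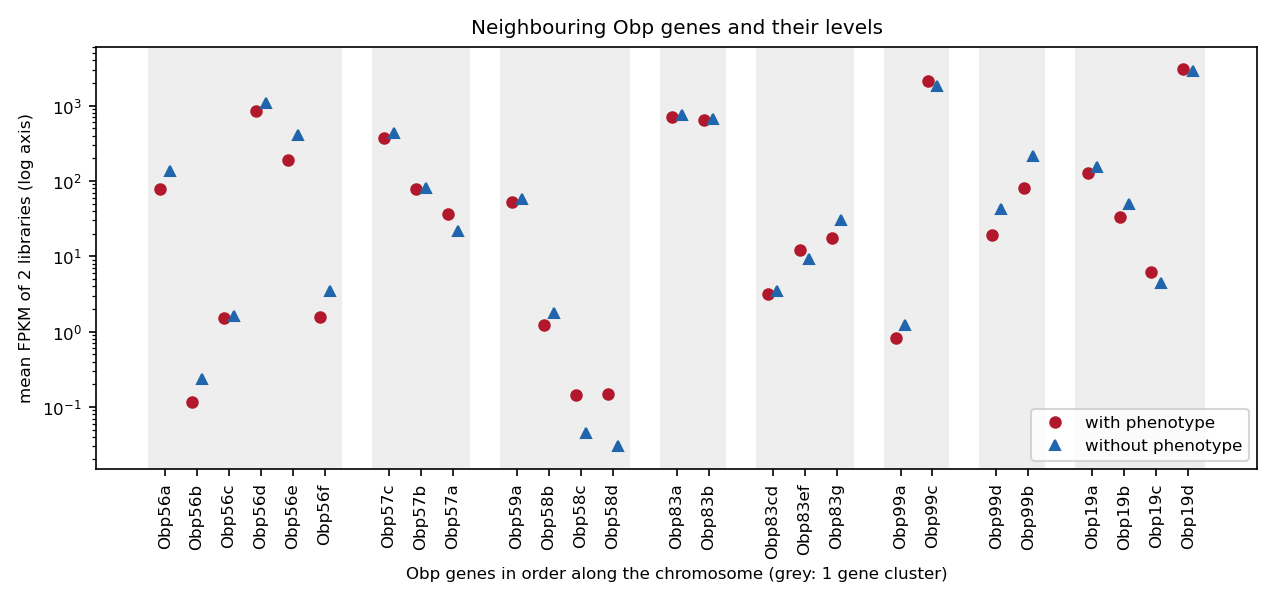
Mean FPKM (log axis) with and without phenotype of Obp genes that have another member within 20000 bp, for groups of neighbours with at least 1 tested gene, one position a gene and one grey band a group of neighbours. Neighbours differ widely in level, as Obp19c (5.26 FPKM over all libraries) and Obp19d (2995 FPKM) do.

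The gap between repeats of one group was wider, by median, in this family than over all genes tested. The median absolute log2 difference between repeats was 0.135 for the 33 members and 0.101 for all genes with phenotype. Without phenotype it was 0.198 for the members and 0.117 for all genes. Repeat 1 was the higher repeat for 12 of 33 members with phenotype (39.4% of all genes) and for 22 of 33 (66.7%) without phenotype (38.9% of all genes). The members are not independent of each other, so these values describe the libraries and were not tested. The group means of Obp28a and Obp99b lay farther apart than the repeats of either group, which was not so for Obp19d, Obp99c, Obp49a and Obp84a. Obp28a and Obp99b had the smallest p of the members in these same libraries, so their gap follows largely from that choice. Other members, such as Obp99d and Obp57a, had such a gap too.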

How the data were processed

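Polyadenylated RNA of 10 heads per library was sequenced by the authors as single-end reads of 50 cycles from an unstranded TruSeq kit. The reads were aligned with Bowtie2 to RefSeq mRNAs and quantified with RSEM. The submitters' processing notes name dm3 and dm6. Versions of their tools: not given in the sources used here. Each gene has a deposited FPKM value per library, so no count test was used, and the EBSeq test of the study could not be repeated.

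The 10194 genes averaging 1 FPKM or more entered a two-sided test on log2(FPKM + 1), by lmFit and eBayes with trend of limma 3.58.1 (R 4.3.3), adjusted after Benjamini and Hochberg (threshold 0.1). The fit was tested on simulated data. Python 3.11.15 with pandas 2.3.3 made the tables. Coordinates are from the Ensembl annotation of dm6, to which 51 members matched by name. Every tested member is named, with fold change, SE and adjusted p for those of at least 50 FPKM and for the 8 smallest p. The known sites and marker lists come from general knowledge (92 of 95 names matched; Obp88a, FASN1 and Gat were not analysed here). Members, lists and rule were chosen with earlier results of these data known.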

Additional observations from a re-analysis of the deposited data

How the results depend on the processing

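Over all genes, 9 passed the threshold. The count was 3 without a filter on low values, 109 at a mean of at least 5 FPKM, 23 on log2(FPKM + 0.1), 4 with median ratio scaling, 5 without the trend and 4 at an adjusted p under 0.05. Leaving out one library gave 0 to 509 genes, with 0 without either library with phenotype, 509 without repeat 1 without phenotype and 142 without repeat 2 without phenotype. The lone library of a group is then assumed to vary like the other group. Of the Obp genes, 0 passed. The count was 4 at a mean of at least 5 FPKM, 2 on log2(FPKM + 0.1) and 0 to 5 when leaving out one library. At an unadjusted p under 0.05, 13 Obp genes stood, and 8 to 14 when leaving out one library. Of the 13 with all 4 libraries, 11 were lower and 2 higher with phenotype, against 6.67% and 16.0% of all genes. The log2 fold change was then negative for 24 of 33 Obp genes, against 37.3% of all genes. Leaving out one library, it was negative for 19 to 26 of 33, against 34.3% to 40.3% of all genes. The 19 came without repeat 1 without phenotype, so the lean to lower values was weaker there. The median log2 fold change of the Obp genes was -0.15, and -0.05 over 49 genes without a filter. The log2 ratio of the summed FPKM was -0.12, and -0.23 to -0.01 when leaving out one library. The labels do not pair the repeats. With a replicate block, 0 genes and 0 Obp genes passed and 12 Obp genes were under an unadjusted p of 0.05. Of these, 10 were lower and 2 higher, against 6.03% and 14.3% of all genes. Deviations of equally numbered repeats correlated at -0.129, so the crossed pairing was run after seeing the data. With this block 404 genes and 7 Obp genes passed. The pairing was picked from the same deviations that it removes, so a higher count follows at least in part from that choice.

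Of 230 values of the 23 genes given with a test, 201 kept direction and side of the threshold, 15 passed it and 14 reversed. With median ratio scaling, Obp19d and Obp84a were at -0.01 each. Leaving out one library, the log2 fold change ran from -0.06 to 0.21 for Obp19d, -0.02 to 0.50 for Obp99c, -0.24 to 0.06 for Obp83a, -0.16 to 0.05 for Obp83b, -0.48 to 0.09 for Obp56g, -0.29 to 0.27 for Obp49a, -0.11 to 0.05 for Obp57b, -0.24 to 0.02 for Obp56h and -0.14 to 0.28 for Obp84a. The cause of these changes was not tested. The 230 values leave out the crossed block. Over the other alternatives with all 4 libraries, the adjusted p from limma ran from 0.078 to 0.24 for both Obp99b and Obp28a. The depth of the libraries is unknown, which limits what can be said of the 18 genes under 1 FPKM.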
